A study of Mus musculus with 24 samples.

Results

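Neurexins, neuroligins and the scaffold proteins under the excitatory synapse were followed in the cerebral cortex of mouse neonates as 9 genes: the neurexin genes Nrxn2 and Nrxn3, the neuroligin genes Nlgn1, Nlgn2 and Nlgn3, the PSD-95 gene Dlg4, and the Shank genes Shank1, Shank2 and Shank3. They were picked by symbol from the 48709 genes of the deposited gene table, and each symbol gave 1 row of counts. The 12 cortex libraries came from neonates whose dams had breathed nano-sized particulate matter (nPM) or filtered air (control) during gestation, with 3 libraries for each sex and exposure. Per the labels the mice were C57BL/6J neonates aged 3 to 5 days, and dams breathed the exposure for 5 h on each of 3 weekly days from gestational day 2, at a labelled dose of 300 mg/m3. The methods of the study give the dose per cubic metre in micrograms, the mice as C57BL/6NJ and the age as day 5. Per the methods the 3 neonates of each sex and exposure came from different litters. The labels do not name the litter, so littermates of the other sex cannot be identified, and litter was in no fit. Exposure took place before birth only, and no allele was altered. RNA came from whole dissected cortex, so fewer cells of a type and less RNA per cell cannot be told apart, and one row of counts per gene does not separate the long and short neurexin forms.

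Neurexins sit on the presynaptic membrane and bind neuroligins on the facing postsynaptic membrane, and the pair aligns release sites with receptors. Neuroligin 1 acts mainly at excitatory synapses, neuroligin 2 at inhibitory synapses and neuroligin 3 at both. Inside the excitatory spine, neuroligins and glutamate receptors bind PSD-95, and Shank proteins form the layer below it that ties the receptors to the actin cytoskeleton. In the neonatal mouse cortex synapse formation is at an early stage, and variants in several of these genes are known from autism spectrum disorder.

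The 5 prime ends of 3 of these genes are shown because the transcripts of Nlgn1 on the one side and of Shank3 and Nlgn2 on the other lie at opposite ends of base composition. The sequences are RefSeq promoter windows on GRCm38.p6, from 250 bases before to 50 bases after an annotated start, read 5′ to 3′ on the strand of the gene. Capitals mark every GC box, searched as GGGCGG on both strands, with adjoining boxes run together. The windows are Nlgn2 at chr11:69837735-69838034 (minus strand), Shank3 at chr15:89499358-89499657 (plus strand) and Nlgn1 at chr3:26331860-26332159 (minus strand).
Nlgn2: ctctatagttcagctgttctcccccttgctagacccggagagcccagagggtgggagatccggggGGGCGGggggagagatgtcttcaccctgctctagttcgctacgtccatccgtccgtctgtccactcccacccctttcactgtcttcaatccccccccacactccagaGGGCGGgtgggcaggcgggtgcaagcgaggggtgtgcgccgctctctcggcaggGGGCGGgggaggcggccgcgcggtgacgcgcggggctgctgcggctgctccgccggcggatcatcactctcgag
Shank3: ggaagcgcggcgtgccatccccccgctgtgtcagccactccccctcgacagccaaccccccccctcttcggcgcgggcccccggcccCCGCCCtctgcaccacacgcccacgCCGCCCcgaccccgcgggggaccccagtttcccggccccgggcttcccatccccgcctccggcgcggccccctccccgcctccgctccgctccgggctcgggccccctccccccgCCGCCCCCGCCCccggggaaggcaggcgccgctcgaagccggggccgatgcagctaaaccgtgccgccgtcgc
Nlgn1: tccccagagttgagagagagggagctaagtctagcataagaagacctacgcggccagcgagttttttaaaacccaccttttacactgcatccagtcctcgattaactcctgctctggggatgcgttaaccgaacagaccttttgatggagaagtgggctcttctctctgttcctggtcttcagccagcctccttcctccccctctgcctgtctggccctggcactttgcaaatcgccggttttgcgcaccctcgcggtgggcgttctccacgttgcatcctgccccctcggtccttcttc
The Shank3 window held 4 GC boxes and 40 CpG dinucleotides at 81.0% GC. The Nlgn2 window held 3 GC boxes and 26 CpG at 68.7% GC. The Nlgn1 window shown had 14 CpG at 55.7% GC, and the searched letters were not in it. The other Nlgn1 window, at chr3:26153937-26154236, had 6 CpG at 44.7% GC and 0 GC boxes. Of all 32851 promoter windows in the table, 35.7% held a GC box, 19.5% held at least 2, 16.9% had at least as many CpG as Nlgn2 and 3.91% at least as many as Shank3. The median window had 52.7% GC and 7 CpG. The table held 10 windows for 5 of the 9 genes, and the cAMP response element TGACGTCA was in none of these 10 and in 1.79% of all windows. Over the longest transcript, Nrxn2, Shank3, Shank1 and Nlgn2 were 62.4%, 62.4%, 61.4% and 60.7% GC, above 97.0% or more of 15655 genes, and Nlgn1 was 38.9% GC, above 5.61% of them.

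The loci differed widely in span on mm10. Nrxn3 on chromosome 12 (plus strand) spanned 1612 kb, Nlgn1 on chromosome 3 (minus strand) 906 kb and Shank2 on chromosome 7 (plus strand) 423 kb. Nlgn2 and Dlg4, both on chromosome 11, spanned 14.7 kb and 28.4 kb, and Nlgn3 lay on the X chromosome. Counts of genes that overlap a member were at most 2.02% of its own, the value of the sense intronic Gm37573 within Nlgn1. The strand setting of the counting is not given in the sources used here, so reads of a gene and of an overlapping gene on the other strand cannot be told apart.

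Cortex libraries held between 22301409 and 33804371 counts, with RIN from 9.4 to 9.9, and each of the 9 genes had at least 1879 counts in every library. All 12 marker lists for cell types and brain regions were detected, neuronal and glutamatergic markers in every library. The libraries also carried some striatal markers, summed to between 102 and 376 CPM (counts relative to the library total in the usual CPM unit, scaled by TMM, the trimmed mean of M values) in controls and 237 to 290 CPM in nPM libraries. The share of counts on genes that Gencode classes as TEC, a class of transcripts with little experimental evidence, was 0.369% to 0.406% in control females and 0.273% to 0.294% in nPM females, with no overlap. In control males it was 0.224% to 0.338% and in nPM males 0.264% to 0.363%. It is given because it moved with several of the genes below.

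Dlg4 was the most abundant of the 9 genes. Per kilobase of annotated exon length, at 63.4 ± 6.09 RPKM (SD, n = 12), it stood above Nrxn2 (22.2 ± 1.90 RPKM) in 12 of 12 libraries. Their ranges did not overlap. Nlgn2 followed at 17.8 ± 1.69 RPKM, Nlgn1 at 16.4 ± 0.728, Nrxn3 at 14.7 ± 1.13 and Shank2 at 14.3 ± 1.17 RPKM, and from Nrxn2 to Shank2 the range of each gene overlapped that of the next. Shank3 at 10.7 ± 0.818 RPKM lay below every value of Shank2. The lowest 3 genes, Shank3, Shank1 (10.4 ± 1.96 RPKM) and Nlgn3 (9.06 ± 0.417 RPKM), overlapped each other in that order. Per kilobase the inhibitory neuroligin, Nlgn2, and the excitatory one, Nlgn1, were close in level, Nlgn2 being the higher in 8 of 12 libraries. The ratio was 1.12 ± 0.106 in controls and 1.05 ± 0.125 in nPM libraries (SD, n = 6 each). This closeness rests on the exon lengths, 5785 bases for Nlgn2 and 13422 for Nlgn1, since their mean levels were 103 and 220 CPM. Shank1 varied most between libraries, with a coefficient of variation of 18.8% of its CPM, against 4.44% for Nlgn1 and 4.60% for Nlgn3.

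**Figure D1:**
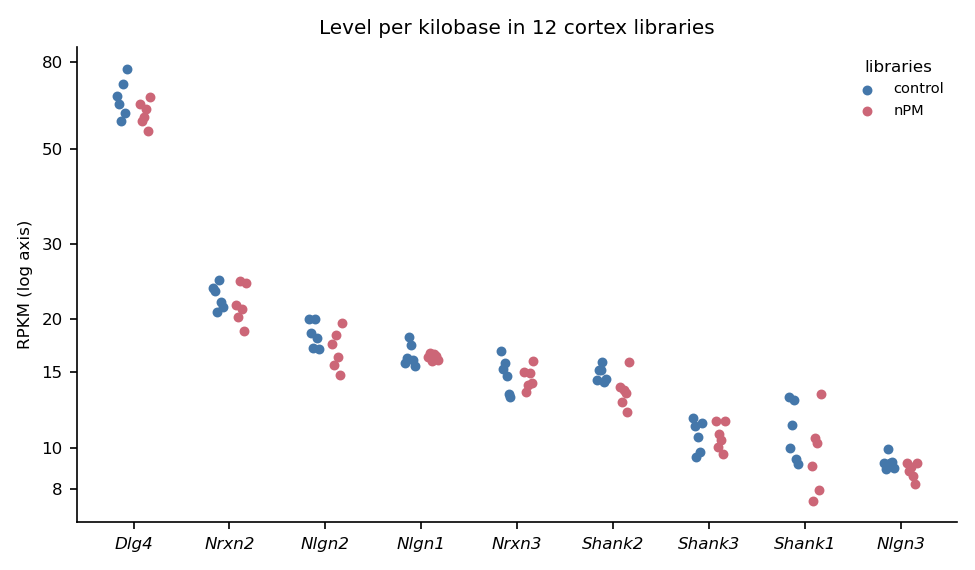
Level of each gene in RPKM on a log axis, genes ordered by their mean, with 1 point per cortex library (6 control, 6 nPM). Dlg4 lies apart from the rest at 55.0 to 77.0 RPKM, and Shank1 has the widest relative spread.

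The main question was whether prenatal nPM changed these genes in the cortex. With both sexes together, none of the 9 genes passed an adjusted p under 0.05 or an unadjusted p under 0.005. The study took its genes for this comparison at the latter threshold. Over all 20857 genes tested, 0.614% passed the unadjusted threshold and 0.0144% the adjusted one. The fitted values were small and lay below 0 for 9 of 9 genes, with a median log2 fold change of -0.06 against -0.00 over all genes, of which 51.1% lay below 0. The 9 genes mostly moved together across libraries (median pairwise r of 0.44), so their signs are not 9 separate observations. One gene, Shank2, had an unadjusted p under 0.05 with edgeR's quasi-likelihood test, as did 1183 of the 20857 genes, so 1 of 9 is near the background. By limma voom and DESeq2 the count at 0.005 was also 0. The largest fitted decrease was that of Shank1, and the 95% intervals of the 9 genes reached no lower than a log2 fold change of -0.43 and no higher than 0.12.

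Shank2, a scaffold of the postsynaptic density, was at 152, 161 and 161 CPM in control females and 168, 151 and 153 CPM in control males. In nPM females it was at 147, 135 and 144 CPM and in nPM males at 142, 129 and 169 CPM. Of the 6 nPM libraries, 5 lay below the lowest control, and nPM male 3 lay just above the highest. The log2 fold change was -0.13 ± 0.06 (SE; edgeR, unadjusted p = 0.0405, adjusted p = 0.862). A two-sided exact permutation test over the libraries gave p = 0.0541, where the smallest possible is 0.00216. Within sequencing lanes the difference in mean log2 CPM was -0.19 in lane 2 (4 nPM against 4 control) and -0.01 in lane 3 (2 against 2). Without nPM male 3 the log2 fold change was -0.18 with an unadjusted p of 0.00129 (edgeR; adjusted 0.290), and without nPM female 2 it was -0.09 with an unadjusted p of 0.152.

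Shank1 encodes another Shank scaffold of excitatory synapses. It was at 138, 105 and 119 CPM in control females and 136, 98.9 and 96.5 CPM in control males. In nPM libraries it was at 95.3, 79.0 and 111 CPM in females and 108, 84.0 and 140.4 CPM in males, so the highest and the lowest library of all 12 were both nPM. The log2 fold change over both sexes was -0.18 ± 0.12 (edgeR, unadjusted p = 0.165, adjusted p = 0.885). Without nPM male 3 it was -0.32 with an unadjusted p of 0.00214 (edgeR; adjusted 0.299). Without nPM male 2 it was -0.10, and with the TEC share as a covariate it was -0.02. Within lanes it was -0.38 in lane 2 and 0.22 in lane 3, so its direction differed between the lanes.

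Shank3, the Shank gene best known from Phelan-McDermid syndrome, was at 105, 99.9 and 84.4 CPM in control females and 94.3, 86.9 and 102 CPM in control males. In nPM libraries it was at 103, 89.3 and 95.9 CPM in females and 92.8, 86.3 and 103 CPM in males. The groups covered each other almost fully, and the log2 fold change was -0.01, with a 95% interval from -0.13 to 0.12.

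Dlg4 encodes PSD-95, which anchors glutamate receptors. It was at 331, 317 and 289 CPM in control females and 352, 303 and 384 CPM in control males, against 318, 289 and 296 CPM in nPM females and 309, 274 and 329 CPM in nPM males. Of the controls, 3 lay above the highest nPM library. The log2 fold change was -0.12 ± 0.06 with an adjusted p of 0.865 (edgeR), and it was -0.13 within lane 2 and -0.10 within lane 3. Without nPM male 2 or control male 3 it was -0.08.

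Among the neuroligins, Nlgn2 was at 116, 107 and 98.9 CPM in control females and 116, 104 and 98.5 CPM in control males. In nPM libraries it was at 101, 90.2 and 106 CPM in females and 94.5, 85.6 and 113 CPM in males. The groups overlapped, with 3 nPM libraries below the lowest control, and the log2 fold change was -0.12 ± 0.07 (edgeR, adjusted p = 0.872). It was -0.07 without nPM male 2 and -0.18 without nPM male 3. Nlgn3 had a log2 fold change of -0.06 ± 0.04 (edgeR, adjusted p = 0.884) and 3 nPM libraries below the lowest control. Nlgn1 was nearly level, at a median of 216 CPM in controls (209 to 244 CPM) and 219 CPM in nPM libraries (214 to 224 CPM), with a log2 fold change of -0.01 ± 0.04. Exact permutation tests over the libraries gave p = 0.145 for Nlgn2, 0.0823 for Nlgn3 and 0.701 for Nlgn1.

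Of the neurexins, Nrxn2 was between 287 and 341 CPM in controls (median 312) and between 259 and 339.8 CPM in nPM libraries (median 294), with a log2 fold change of -0.06 ± 0.07, which was -0.01 without nPM male 2 and -0.11 without nPM male 3. Nrxn3 was between 166 and 212 CPM in controls and between 170.3 and 201 CPM in nPM libraries, with a log2 fold change of -0.02 ± 0.06 over both sexes. Within lanes the Nrxn2 and Nlgn2 differences had opposite signs, at -0.20 and -0.26 in lane 2 and 0.21 and 0.15 in lane 3.

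**Figure D2:**
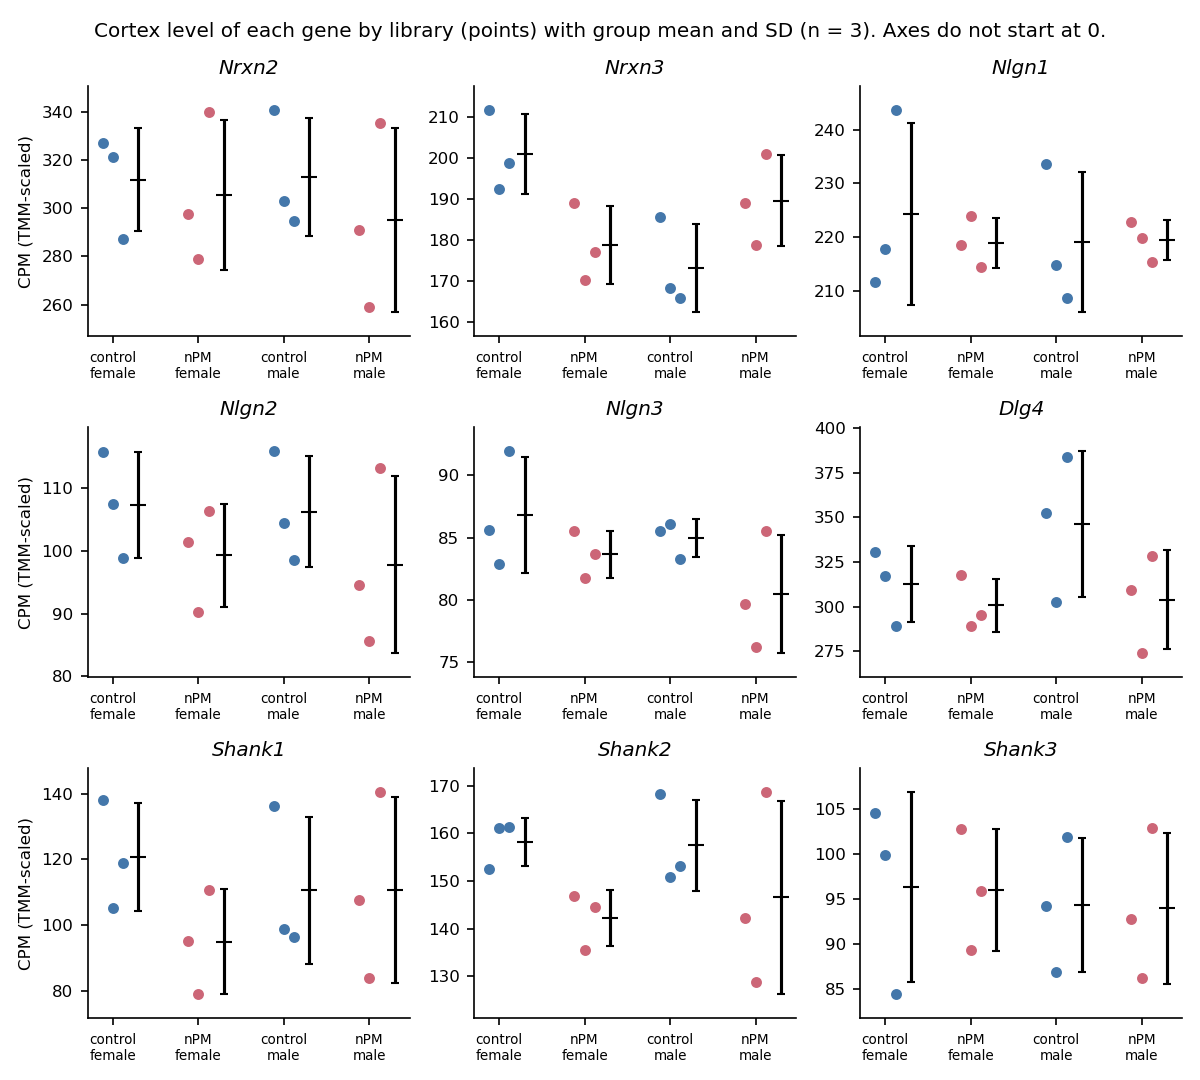
Level of each of the 9 genes in CPM by sex and exposure, with 1 point per cortex library and the mean and SD of each group beside it (n = 3), on axes that do not start at 0. For Shank2 the 3 nPM females lie below the 3 control females, a split not counted over all genes. Its nPM male 3 is the highest of all 12 libraries. Control is blue and nPM red.

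The study also fitted each sex alone. For the female cortex it took genes at the adjusted threshold into its pathway analysis. In females Shank1 passed an unadjusted p under 0.005 but not an adjusted p under 0.05. Its log2 fold change was -0.29 ± 0.07, or 0.816 of the control level, with a 95% interval from -0.44 to -0.15 (edgeR, unadjusted p = 0.000748, adjusted p = 0.0557). The female groups still overlapped, since nPM female 3 at 111 CPM was above control female 2 at 105 CPM. No other member passed the unadjusted threshold, which makes 1 of 9 where 4.02% of the 21731 genes tested in females passed it and 1.11% passed an adjusted p under 0.05. The adjusted p of Shank1 was 0.0735 with limma voom and 0.0129 with DESeq2. Without control female 3 its log2 fold change was -0.17 (edgeR, unadjusted p = 0.0112), and without nPM female 2 it was -0.26 (unadjusted p = 0.00627).

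Shank2 and Nrxn3 were next in females. Shank2 had a log2 fold change of -0.16 ± 0.05 (edgeR, unadjusted p = 0.00763, adjusted p = 0.149), and its 3 nPM females lay below its 3 control females. Nrxn3 had a log2 fold change of -0.16 ± 0.05 (edgeR, unadjusted p = 0.0110, adjusted p = 0.173), with control females at 212, 192 and 199 CPM and nPM females at 189, 170.3 and 177 CPM, again without overlap. How many of all genes tested had such a split in females was not counted. It is therefore not read as particular to Shank2 and Nrxn3. Dlg4 had a log2 fold change of -0.04 in females, Nlgn2 of -0.08, Nlgn3 and Nlgn1 of -0.06, Nrxn2 of -0.00 and Shank3 of 0.03. In the females the TEC share did not overlap between the exposures either. With that share in the fit of females, an alternative chosen after seeing the data, Shank1 was at 0.54 and Nrxn3 at 0.37, with unadjusted p of 0.328 and 0.421 (edgeR). Shank2 was then at -0.46, Nlgn2 at -0.39 and Nrxn2 at -0.82, and none of the 9 genes had an unadjusted p under 0.05, so that exposure and TEC share cannot be told apart in females.

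In males none of the 9 genes passed either threshold or an unadjusted p of 0.05 with edgeR, and none passed 0.005 with limma voom or DESeq2. Over all 21670 genes tested in males, 0.318% passed the unadjusted threshold and 0% an adjusted p under 0.05, while DESeq2 gave 3 genes at an adjusted p under 0.05. Dlg4 had the largest decrease, at -0.21 ± 0.11 (edgeR, unadjusted p = 0.0899), and Nrxn3 the largest increase, at 0.15 ± 0.08 (unadjusted p = 0.0808). Shank1 was at 0.08 with a 95% interval from -0.35 to 0.50 in males, which includes the value found in females. Male values turned on single libraries, since Shank1 was at -0.39 without nPM male 3 and at 0.38 without control male 1. Dlg4 was at -0.47 without nPM male 3, with an unadjusted p of 0.00451 (edgeR), and at -0.10 without control male 3, with an unadjusted p of 0.381. Nrxn3 was at 0.04 without nPM male 3 and at 0.24 without control male 1.

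The nPM effects of the sexes were compared directly by the interaction term of a fit over all 12 libraries. None of the 9 genes passed an unadjusted p under 0.005, where 1.35% of the 20857 genes tested did, and no gene at all passed an adjusted p under 0.05 (0%) with edgeR, against 67 with DESeq2. At an unadjusted p under 0.05, 2018 genes passed. Nrxn3 was the member with the smallest p. Its nPM effect was higher in males than in females by 0.28 ± 0.09 on the log2 scale, with a 95% interval from 0.08 to 0.48 (edgeR, unadjusted p = 0.0103, adjusted p = 0.403). Control males stood at 186, 168 and 166 CPM and nPM males at 189, 179 and 201 CPM, with overlap. Nrxn3 was thus higher on average after nPM in males and lower in females. With the TEC share in the fit, the Nrxn3 interaction was 0.08 (unadjusted p = 0.416). In that fit Nlgn2 passed 0.005, at -0.43 (edgeR, unadjusted p = 0.00209, adjusted p = 0.701), against -0.04 without the share. Shank1 was then at -0.46 (edgeR, unadjusted p = 0.0184, adjusted p = 0.786). Without the TEC share the Shank1 interaction was 0.28 with a 95% interval from -0.25 to 0.81 and an unadjusted p of 0.272. A difference between the sexes was thus not shown for the gene with the smallest p in females. Shank2 had an interaction of 0.07 and Dlg4 of -0.17.

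The sexes themselves gave no call among these genes at the unadjusted threshold, which 0.518% of all genes passed, with 0.0336% at an adjusted p under 0.05. For the X-linked Nlgn3 the log2 difference of males against females was -0.02, with a 95% interval from -0.12 to 0.07. The largest among the 9 genes was that of Nrxn3, at -0.10 (edgeR, unadjusted p = 0.125), and it too had an unadjusted p above 0.05.

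**Figure D3:**
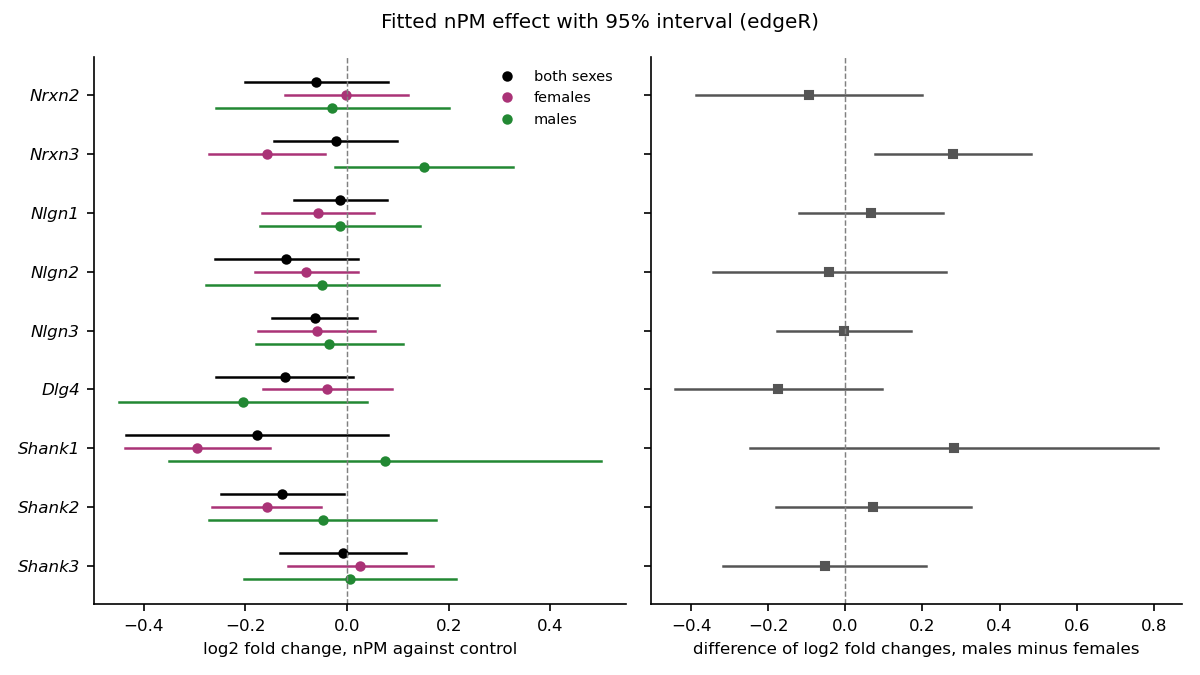
Fitted log2 fold change of nPM against control for each gene, with 95% intervals, over both sexes, in females and in males (left), and the difference of the male and female effects (right). The intervals of Shank1, Shank2 and Nrxn3 in females, of Shank2 over both sexes and of the Nrxn3 difference lie to one side of 0.

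Around these genes, 100 further genes of the same synaptic machinery were counted, all of which were tested. These were 47 other adhesion partners, 27 other excitatory scaffolds, 10 proteins of the inhibitory postsynapse, 8 intracellular partners of neurexins and 8 splicing regulators that act on neurexin transcripts. With both sexes together 1 of the 100 passed the unadjusted threshold, where 0.614% of all genes did. It was Cadm1, the gene of synaptic adhesion molecule SynCAM1, which rose from 283 ± 22.9 CPM in controls to 324 ± 16.2 CPM in nPM libraries (SD, n = 6 each). That is a log2 fold change of 0.20 ± 0.05 (edgeR, unadjusted p = 0.000817, adjusted p = 0.550). Without control female 1 it was 0.17, with an unadjusted p of 0.00621. With DESeq2 the adjusted p of Cadm1 was 0.0436. In edgeR with genes of at least 1 count in any library it was 0.0130. The adhesion partner with the next smallest p was Cbln4, a secreted cerebellin that bridges neurexins to postsynaptic receptors. It was at 8.59 ± 2.26 CPM in controls and 11.8 ± 2.10 CPM in nPM libraries (unadjusted p = 0.0110, adjusted p = 0.844, edgeR). With DESeq2 Cbln4 passed 0.005 as well (unadjusted p = 0.00245, adjusted p = 0.434), which made 2 of the 100. In edgeR with genes of at least 1 count in any library, its adjusted p was 0.00141, where 185 genes passed 0.05.

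In females 9 of the 100 genes passed the unadjusted threshold, beside 4.02% of all genes, and 8 of the 9 were lower after nPM. Over all genes 615 of those that passed were lower and 258 higher, so lower calls were also the majority over all genes. Of the 27 other excitatory scaffolds, 4 fell at this threshold and none rose. These were Lrrc7 (densin-180, which binds CaMKII and Shank proteins), from 240.2 to 199 CPM, Frmpd4 from 129.95 to 114 CPM, Homer1, which links Shank proteins to metabotropic glutamate receptors, from 172 to 156 CPM, and the guanine nucleotide exchange factor Kalrn from 394 to 343 CPM. Lrrc7 also passed the adjusted threshold, with a log2 fold change of -0.28 ± 0.06 (edgeR, adjusted p = 0.0451), which it lost with RLE scaling (0.0518), with at least 10 counts per library (0.0508) and with filterByExpr (0.0517). Homer1 lost the unadjusted threshold with DESeq2 (unadjusted p = 0.00668) and, in edgeR, without RIN (unadjusted p = 0.0132). With DESeq2 the adjusted p was 0.00364 for Lrrc7, 0.0382 for Kalrn and 0.0606 for Frmpd4. DESeq2 passed 443 of all genes at an adjusted p under 0.05 in females, against 241 with edgeR. The scaffold list as a whole had 23 of 27 values below 0 with a median of -0.08 in females. It had 19 of 27 with a median of -0.06 in males and 24 of 27 with a median of -0.07 over both sexes. Over all genes the medians were -0.00, 0.00 and -0.00, with 50.4%, 49.2% and 51.1% of values below 0. All genes share the same libraries, so these signs are not 27 separate observations, and the list as a set was not tested. Frmpd4 and Homer1 had the smallest p of the list over both sexes, at -0.13 and -0.11 (adjusted p = 0.844 for each, edgeR).

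Among adhesion partners in females, Adgrl2 (a latrophilin, log2 fold change -0.21), Il1rapl1 (-0.21) and Ntrk3 (the TrkC receptor, -0.32) fell at the unadjusted threshold, and Cadm1 rose (0.26). With DESeq2 Il1rapl1 missed it (unadjusted p = 0.00529), while the adjusted p was 0.00592 for Cadm1, 0.0108 for Ntrk3 and 0.0266 for Adgrl2. The list median was 0.00, with 24 of 47 values above 0. Of the inhibitory postsynaptic partners Dmd, the dystrophin gene, fell from 164 ± 7.59 to 137 ± 6.59 CPM in females (SD, n = 3 each). In edgeR this gave -0.28 ± 0.05 on the log2 scale with adjusted p = 0.0210, and DESeq2 gave an adjusted p of 0.00161 for Dmd. Its unadjusted p stayed under 0.005 in each of the 6 fits that left out 1 library, but its adjusted p stayed under 0.05 in only 1 of them. Lrrc7 kept the unadjusted threshold in 5 of 6 such fits and the adjusted one in 0, and was at -0.19 without control female 3 (edgeR, unadjusted p = 0.00733). Adgrl2 kept the unadjusted threshold in 5 of 6 as well, and the other genes named here lost it in 3 to 5 of 6. With the TEC share in the fit of females 1 of the 100 genes passed, and Lrrc7 and Dmd were at 0.09 and 0.26. In the fit of both sexes Dmd was at -0.11 (edgeR, unadjusted p = 0.0821), and 0 of the 10 inhibitory partners had an unadjusted p under 0.05.

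No intracellular neurexin partner and no splicing regulator passed the threshold in either sex or in both. Lin7b (-0.13) and Apba1 (-0.07), which form a complex with the scaffold kinase Cask behind neurexins, had the smallest p of the first list over both sexes, and Khdrbs3 (-0.10) and Khdrbs1 (0.09), the latter known as Sam68, of the second. In males only Nxph3, a secreted neurexophilin that binds neurexins, passed, at -0.31 ± 0.08 (edgeR, unadjusted p = 0.00465, adjusted p = 0.962), and it lost the threshold in 4 of 6 fits that left out 1 library, with a value of -0.19 without nPM male 3. It also missed the threshold with limma voom (unadjusted p = 0.00505) and, in edgeR, with library totals only (0.0113), without RIN (0.00658) and with the TEC share (0.0145). The interaction was passed by 0 of the 100 genes with edgeR and 1 with DESeq2.

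**Figure D4:**
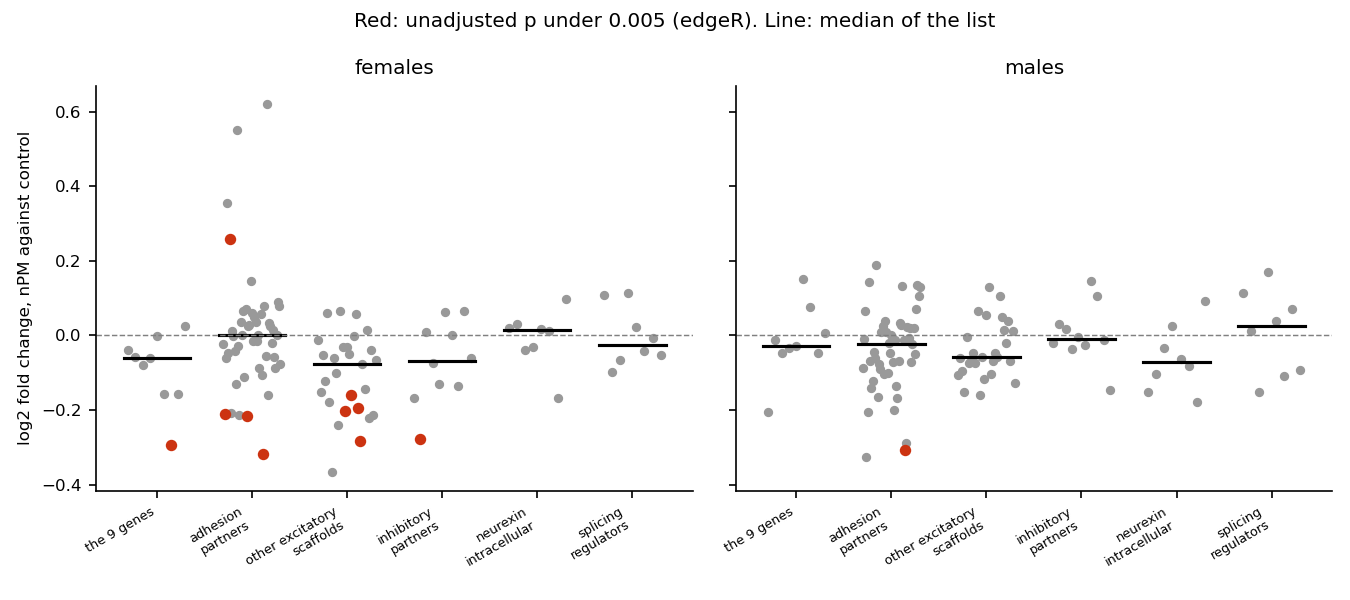
Log2 fold change of nPM against control in females (left) and males (right) for the 9 genes and the 5 lists of partner genes, with the median of each list as a line and genes with an unadjusted p under 0.005 in red. In females 4 of the 27 other excitatory scaffolds are red and all lie below 0, and in males the only red point is Nxph3.

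Across the 12 libraries the genes mostly moved together. Of their 36 pairs, 32 had a positive Pearson correlation of log2 CPM, with a median r of 0.44. Nrxn2 and Nlgn2 were closest (r = 0.94), and Nlgn2 was also close to Shank1 (r = 0.85) and Shank2 (r = 0.81). Nlgn1 had the 4 negative values, with r = -0.60 to Shank3, -0.32 to Dlg4, -0.18 to Nrxn2 and -0.13 to Nlgn2, and its other values were 0.14 to 0.37. These are descriptions over 12 libraries, in which all genes share the depth, lane and RNA quality of each library. The TEC share moved with Nrxn3 (r = 0.87), Shank1 (r = 0.76), Nlgn2 (r = 0.66) and Shank2 (r = 0.61) but not with Dlg4 (r = -0.02), and its part in the results was not tested beyond the fits above. The library total had r = -0.67 with Nrxn2, -0.59 with Nlgn2 and -0.55 with Shank1, but -0.03 with Dlg4 and 0.03 with Nlgn1. The part of the total was not tested.

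**Figure D5:**
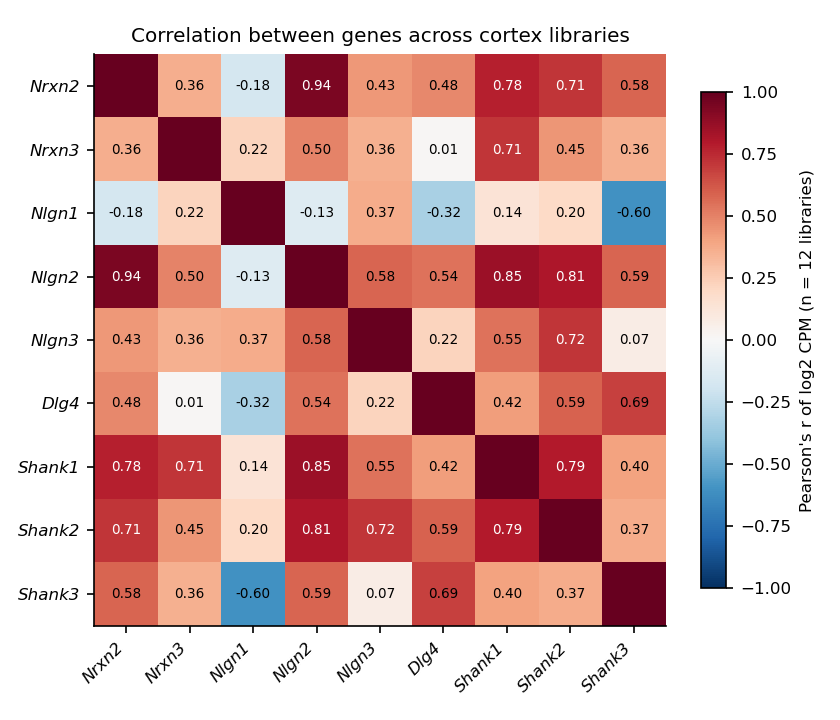
Pearson correlation of log2 CPM between each pair of genes over the 12 cortex libraries. Most cells are positive, with 0.94 for Nrxn2 and Nlgn2, and the negative cells are those of Nlgn1.

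When the standardized log2 CPM of the 9 genes was averaged in each library, nPM male 2 (-1.36) and nPM female 2 (-0.91) were lowest. They were also the cortex libraries with the most counts, at 33804371 and 33412515. Control male 1 (0.90) and nPM male 3 (0.83) were highest, so libraries of 1 exposure lay at both ends. Of the 20848 other genes tested, 21 had a Pearson r above 0.9 with this average over the 12 libraries. Among the closest were Cacna1a (r = 0.97), a calcium channel subunit, Map1a (0.97), a microtubule protein, Bsn (0.94), the presynaptic scaffold bassoon, and Cmip (0.94). Summed glutamatergic markers were at 804 to 977 CPM in controls and 751 to 836 CPM in nPM libraries, GABAergic markers at 198 to 316 and 253 to 304 CPM, and general neuronal markers at 6322 to 7459 and 6815 to 7148 CPM. The part of these markers in the results was not tested.

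Whole blood of the same series gives the level of these genes outside the brain. In 10 of its 12 libraries the 9 genes together had 7 to 67 counts, or 0.360 to 3.31 CPM, against 1405 to 1726 CPM in cortex. Nrxn3 was at 0 counts in 5 blood libraries, and 0 counts allow up to 0.137 to 0.221 CPM by counting error (3 counts of the library). The other two libraries, blood control female 2 and blood nPM male 2, had 472 and 390 counts (22.3 and 21.1 CPM). The origin of these counts was not tested. In blood control female 2 Nlgn2 alone made up 42.4% of these counts, against 6.15% to 6.91% in the cortex libraries. In blood nPM male 2 Nrxn3 made up 20.3% and Shank1 16.9%, against at most 12.9% and 8.30% in cortex, while Dlg4 was at 10% against at least 18.4%. The Nrxn2 share of that library, 18.5%, lay within the 18.2% to 21.7% of the cortex libraries.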

How the data were processed

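RNA-seq of cerebral cortex and whole blood from mouse neonates was used, with 12 libraries per tissue and 3 per sex and exposure. Per the study's methods, the authors depleted ribosomal RNA, used Trimmomatic for trimming, HISAT2 for alignment to mm10 and featureCounts 1.5.0-p3 for counting over Gencode M11. The deposited count table holds raw counts, and all its sample columns were used. The study left a blood library out for its distinct count distribution, and its methods do not name that library. All 12 blood libraries are described here. The authors' gene table gave symbols, coordinates and lengths. It also holds RPKM means made by the authors, which were not used. RPKM values in the text were computed from the counts.

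A gene entered a fit where each of its libraries held at least 1 count of it, and was tested with edgeR 4.0.16 (R 4.3.3), using TMM scaling and the quasi-likelihood F test, two-sided, with exposure, sex and RIN in the model. Fits of 1 sex had exposure and RIN, and the interaction fit added exposure by sex with females as reference. P-values were adjusted by Benjamini-Hochberg over all genes tested. Log2 CPM used a prior count of 0.5. Alternatives were limma 3.58.1 (voom), DESeq2 1.42.0, other scalings, filters and covariates, and leaving out each library. The TEC share as a covariate in the fits of 1 sex was chosen after seeing the data. Exact permutation tests were two-sided. The fit was tested on simulated data with known changes. No 2 cortex libraries were copies of each other, with a smallest chi-square per gene of 7.23. The p-values measure the spread between neonates of these libraries.

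The genes and the lists of partners were chosen with earlier results of these data known. Named partners are those with an unadjusted p under 0.005 in an exposure or interaction fit, the 2 smallest p of each list over both sexes, and the 5 genes closest to the mean profile. Of these, 2 are not reported here. Base composition came from GENCODE M21 transcripts, and promoter windows from RefSeq (GRCm38.p6). Reads were not realigned.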

Additional observations from a re-analysis of the deposited data

Results flagged for a closer look

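In cortex, Nlgn3 in control female 3, at 91.9 CPM, lay apart from the other 5 control libraries (82.9 to 86.1 CPM). It was the only one of 18 cortex groups of 6 libraries in which the highest or lowest library stood apart by Dixon's test, which flags about 1 in 20 groups by chance. The nPM effect on Nrxn3 differed between the sexes by 0.28 on the log2 scale, by edgeR's test of the difference (unadjusted p = 0.0103, adjusted p = 0.403). It was the only 1 of 9 such differences with an unadjusted p under 0.05, which 2018 of 20857 genes had, so 1 of 9 is near the background.

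In blood, 16 of 18 groups had a library that stood apart, and these were 2 libraries only. Blood control female 2 held 2.36 CPM of Nrxn2, 9.45 CPM of Nlgn2, 0.425 CPM of Nlgn3, 3.31 CPM of Dlg4, 1.65 CPM of Shank1, 1.23 CPM of Shank2 and 3.40 CPM of Shank3. Blood nPM male 2 held 3.90 CPM of Nrxn2, 4.28 CPM of Nrxn3, 1.84 CPM of Nlgn1, 2.17 CPM of Nlgn2, 0.867 CPM of Nlgn3, 2.11 CPM of Dlg4, 3.58 CPM of Shank1, 1.35 CPM of Shank2 and 1.03 CPM of Shank3. No cortex comparison used these libraries.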

How the results depend on the processing

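No paired analysis was possible because the replicate numbers follow accession order and pair no samples. The 9 genes had at least 1879 counts per cortex library. Counts of calls moved with the filter, the tool, the TEC share and single libraries, and the cause was not tested. With genes of at least 1 count in any library, 526 genes in both sexes, 1642 in females, 418 in males, 787 for the interaction and 460 for sex passed an unadjusted p under 0.005, and 185, 1280, 155, 379 and 165 an adjusted p under 0.05. Of the 9 genes, 1, 3 and 2 then passed 0.005 in both sexes, in females and for the interaction. DESeq2 gave 22, 443, 3, 67 and 26 genes at an adjusted p under 0.05. At that level, both sexes gave 0 genes with library totals only and 1 each without RIN, with lane or with TEC share, against 3, and sex gave 4 with at least 10 counts and 11 with filterByExpr, against 7. In males 41 genes passed 0.005 with at least 10 counts. With the TEC share, 133, 159 and 135 genes passed 0.005 in females, in males and for the interaction, and 11 in females and 21 in males passed the adjusted threshold. Of the 9 genes, 0 then passed 0.005 in females and 1 (Nlgn2) for the interaction. Without RIN, 1 of the 9 (Nrxn3) passed 0.005 for the interaction.

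Signs turned as follows, in log2. With the TEC share, in both sexes Nrxn3 was 0.055 and Nlgn1 0.0042. In females Nrxn3 was 0.37, Nlgn1 0.31, Nlgn3 0.43, Shank1 0.54, Shank3 -0.41, Adgrl2 0.046, Il1rapl1 0.023, Ntrk3 1.21, Lrrc7 0.090, Kalrn 0.034 and Dmd 0.26. In males Shank1 was -0.19 and Shank3 -0.0056, for the interaction Shank1 was -0.46 and Shank2 -0.17, and for sex Nlgn2 was 0.018 and Shank1 0.13. Nrxn2 in females was 0.0050 with DESeq2 and 0.0052 with RLE scaling. With library totals only, Nrxn2 was 0.0040 and Nlgn1 0.020 in males, Nlgn3 0.033 for the interaction, Nlgn1 -0.020 for sex and Shank3 0.0039 as a difference of means. Nlgn3 for the interaction was 0.0035 with at least 1 count in any library and 0.010 with at least 10. Without RIN, Shank3 was -0.0070 in females and -0.00029 in males, Nlgn1 0.0083 in males and -0.016 for sex, and Shank1 0.047 for sex.

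Leaving out 1 library, genes at an unadjusted p under 0.005 ranged from 68 (without nPM female 2) to 315 (without nPM male 3) in both sexes, 422 (nPM female 2) to 980 (nPM female 1) in females, 42 (nPM male 1) to 214 (control male 1) in males, 159 to 403 for the interaction (nPM male 3 and nPM male 2) and 42 to 427 for sex (control female 1 and nPM male 3). At an adjusted p under 0.05 they ranged from 0 to 6 in both sexes, 23 to 383 in females, 0 to 8 in males and 0 to 1 for the interaction. The 9 genes gave 0 to 2 calls at 0.005 in both sexes (2 without nPM male 3), 0 to 2 in females, 0 to 1 in males and 0 to 1 for the interaction (1 without control male 1 or nPM male 2). In females 3 to 16 of the 100 partners passed (9 with all libraries), with 3 without control female 1 and 16 without nPM female 1. Values that turned in such fits ranged, in both sexes, from -0.068 to 0.013 for Nrxn3, -0.030 to 0.013 for Nlgn1 and -0.048 to 0.030 for Shank3. In females they ranged from -0.049 to 0.047 for Nrxn2, -0.088 to 0.0084 for Nlgn1, -0.10 to 0.0090 for Nlgn3, -0.086 to 0.035 for Dlg4 and -0.052 to 0.11 for Shank3. In males the ranges were -0.24 to 0.10 for Nrxn2, -0.072 to 0.052 for Nlgn1, -0.26 to 0.093 for Nlgn2, -0.39 to 0.38 for Shank1, -0.29 to 0.056 for Shank2 and -0.21 to 0.10 for Shank3. For the interaction they were -0.27 to 0.0092 for Nrxn2, -0.015 to 0.13 for Nlgn1, -0.24 to 0.038 for Nlgn2, -0.058 to 0.042 for Nlgn3, -0.074 to 0.46 for Shank1, -0.076 to 0.14 for Shank2 and -0.20 to 0.051 for Shank3. For sex they were -0.12 to 0.0073 for Nrxn2, -0.021 to 0.041 for Nlgn1, -0.22 to 0.056 for Shank1 and -0.037 to 0.080 for Shank2. As differences of means in the exact permutation test, Nrxn3 ranged from -0.053 to 0.018, Nlgn1 from -0.031 to 0.013, Shank3 from -0.038 to 0.026 and Shank2 from -0.098 to -0.18, the last without nPM male 3 at p = 0.00216, the smallest that exact test can give.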
